A study of Zea mays with 15 samples.

Results

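The sites described here are the places in the maize genome where a peak of ARF27 (GRMZM2G160005), of ARF35 (GRMZM2G317900) or of both was called and where none of the 12 other ARFs profiled had a peak. They were found by merging the peaks of all 14 ARF lists where they overlapped by at least 1 bp. Of 124379 merged sites, 2639 (2.12%) met this rule. They fell into 3 classes, with 2207 sites of ARF27 only, 321 sites of ARF35 only and 111 sites with peaks of both. Every member was counted, and no filter on low values was applied.

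The study profiled 14 maize ARFs by DAP-seq, in which a purified transcription factor is incubated with sheared genomic DNA and the bound fragments are sequenced. All libraries used genomic DNA of the inbred line B73 from field-grown ears of 1-3 cm, and each ARF was a fusion to glutathione S-transferase purified from Escherichia coli. Each ARF had 1 library, and a single GST-HALO control, expressed in wheat germ extract, served as background when the authors called peaks. No test between ARFs was therefore possible, and every difference below is one between lists. The DNA was naked, so the lists say nothing of whether a site is open or occupied in a maize cell.

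ARFs (AUXIN RESPONSE FACTORS) are plant transcription factors that link the hormone auxin to transcription. An N-terminal B3-type DNA-binding domain recognises a short core element containing TGTC, and a pair of ARFs can contact adjacent elements as a dimer. Aux/IAA repressors bind many ARFs through a shared C-terminal domain and are degraded when auxin is perceived. Whether single family members select sites of their own was a question of the study, and private sites are where a peak list would show it. The members were chosen by measured values, the peak calls of these 14 lists, so their counts, their absence from other lists and their strength within the ARF27 and ARF35 lists are descriptions.

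Lists of the pair differed in length. ARF27 had 30665 peaks, from a library that had been reduced to 20 M reads, and ARF35 had 9198 peaks. The depth of the ARF35 library was not given in the labels. The 14 lists held 386300 peaks in all, and ARF34 had the longest list with 74603. Coordinates are those of B73 RefGen version 3. Intervals in parentheses are 95% Wilson intervals for a share, and 95% Newcombe intervals for a difference between shares. They cover counting error over sites only. Reads came from amplified fragments that carried no molecular identifiers, and sites close to each other are not independent.

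Most sites of either ARF were shared. ARF27 had a peak at 28534 merged sites, of which 2318 or 8.12% (7.81 to 8.45) were private to the pair. ARF35 had a peak at 8823 merged sites, of which 432 or 4.90% (4.47 to 5.37) were private. Sites held by the ARF's own list alone were 7.73% of ARF27 sites and 3.64% of ARF35 sites. In the other lists this share ran from 0.438% for ARF39 to 33.8% for ARF34, so both ARFs lay inside that range. Sites held by a single list of any ARF made up 40.5% of all merged sites, and ARF34 held 46.1% of them. That 40.5% has all merged sites as its base and is not comparable with shares of a list's own sites. A single list, ARF34, moved the size of the classes with an ARF27 peak. With ARF34 left out, the ARF27 only class grew from 2207 to 4072 sites and the class with both peaks from 111 to 192, whereas ARF35 only went from 321 to 355.

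Which class was larger changed when lists were cut to equal length by removing the peaks of lowest signal. When each of the 14 lists was cut to its 7520 peaks of highest signal, the ARF27 only class had 680 sites, ARF35 only had 1082 and both had 300. When ARF27 alone was cut to the 9198 peaks of the ARF35 list, the classes held 66, 421 and 13 sites. The order of ARF27 only above ARF35 only therefore held for the lists as deposited and turned around in both of these settings. It stayed when all lists were limited to a −log10 q of 10 or more, with 1169 against 109 sites. Length and strength changed together in the cuts, so their parts cannot be told apart.

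In the lists as deposited, the partner was absent from most private sites. ARF35 had a peak at 111 of the 2318 private ARF27 sites, or 4.79% (3.99 to 5.74), against 30.6% (30.02 to 31.13) of the 26216 ARF27 sites that another ARF shared. ARF27 had a peak at 25.7% (21.80 to 30.02) of the 432 private ARF35 sites, against 95.5% of the 8391 shared ones. Sites that lacked the 12 other ARFs thus mostly lacked the partner as well. The ARF35 list was the shorter one, with 9198 peaks against 30665. With lists of equal size the pair held 300 sites, beside 680 of ARF27 only and 1082 of ARF35 only. ARF35 was then at a larger part of the private ARF27 sites, though still absent from most of them. In the deposited lists the gap between private and shared sites moved with strength, taken in steps of 20 signal ranks as explained below. In the weakest ARF27 step, ARF35 was at 3.22% of private and 7.16% of shared sites. In the strongest, these were 24.1% (n = 29) and 74.9%. ARF27 was at 20.0% of private and 86.5% of shared sites in the weakest ARF35 step, and at 24.1% (n = 29) and 99.6% in the strongest. The nearest ARF35 peak lay a median of 60.8 kb from an ARF27 only site and within 1 kb of 4.76% of them. The nearest ARF27 peak lay a median of 9.82 kb from an ARF35 only site and within 1 kb of 11.8%. These distances were measured to lists of unlike length and are not comparable with each other.

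The sites with 1 further list show which ARF most often kept a site from being private. Among 2822 sites with ARF27, no ARF35 and exactly 1 other ARF, that ARF was ARF34 at 1854, or 65.7% (63.9 to 67.4). ARF4 was the sole other ARF at 343 of these (12.2%) and ARF16 at 291 (10.3%), while ARF39 was at 0. Among 80 sites with ARF35, no ARF27 and 1 other ARF, ARF34 was that ARF at 33 (41.3%) and ARF29 at 17 (21.3%). Among 199 sites with both ARF27 and ARF35 and 1 other ARF, it was ARF34 at 80 (40.2%) and ARF29 at 41 (20.6%). ARF29 thus took a larger share beside ARF35 than beside ARF27 without ARF35, where it was at 89 of 2822 sites (3.15%), although its list of 14157 peaks was far shorter than that of ARF34.

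Private sites were the weaker sites of their own lists. Strength is given as the rank of a site's best peak by signal, the read depth that the peak caller assigned, from 0 for the weakest peak of a list to 100 for the strongest. ARF27 only sites had a median rank of 25.2, with quartiles of 11.9 and 42.8, and the strongest reached 91.5. Shared ARF27 sites had a median rank of 53.7. ARF35 only sites had a median rank of 18.7, with quartiles of 8.15 and 39.8, and the strongest reached 99.7. Shared ARF35 sites had a median of 52.1. At sites with both peaks the median was 37.5 in the ARF27 list and 28.5 in the ARF35 list, between those of the single classes and the shared sites.

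In reads, the median signal was 38.0 at ARF27 only sites against 53.9 at shared ARF27 sites, and 43.0 at ARF35 only sites against 62.4 at shared ARF35 sites. Most private peaks lay near the authors' limit, a −log10 q of 5. The share with a −log10 q under 10 was 90.4% for ARF27 only and 84.7% for ARF35 only, against 49.0% and 55.4% for the shared sites of each list. Only 2 of the 111 sites with both peaks reached 10 in both lists, at chr1:235764471-235764778 and chr3:85638620-85638822. The share of sites that were private fell with strength in both lists. In steps of 20 ranks from the weakest ARF27 sites to the strongest, it went from 16.3% over 13.0%, 8.76% and 2.78% to 0.495%. For ARF35 it went from 12.4% over 5.90% and 3.19% to 1.62% in each of the upper steps.

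**Figure D1:**
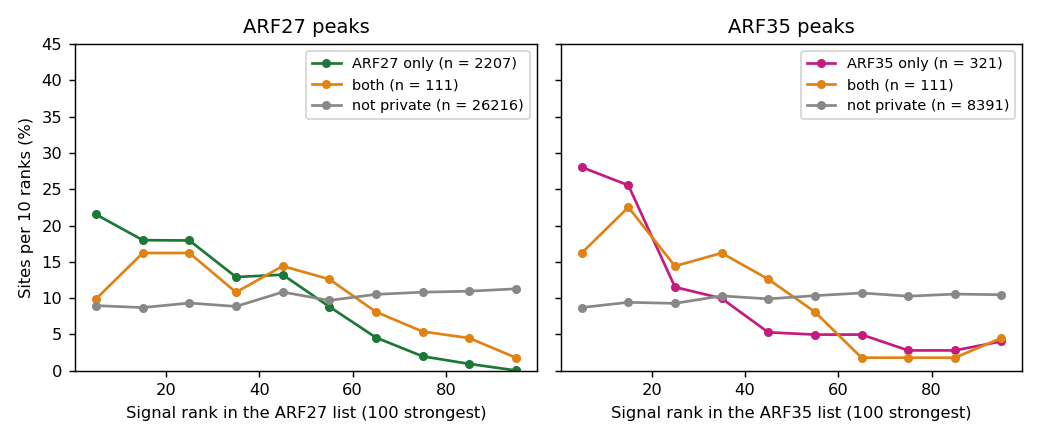
Sites in each class by the signal rank of their best peak, in steps of 10 ranks, as a percentage of the class. The left panel shows ARF27 ranks and the right panel ARF35 ranks. ARF27 only sites fall from 21.5% in the lowest step to 0.0453% in the highest, whereas ARF35 only sites fall from 28.04% and keep 4.05% in the highest step.

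Both single classes were most frequent at the low end, ARF35 only more so, and they differed at the high end. Only 1 of 2207 ARF27 only sites stood in the top 10 ranks of its list, whereas 13 of 321 ARF35 only sites did, and these strong ARF35 sites are described further below. Private sites also rarely held several peaks. Of ARF27 only sites, 10 (0.453%) contained more than 1 ARF27 peak, against 7.80% of shared ARF27 sites. Of ARF35 only sites, 1 (0.312%) did, against 4.36% of shared ones. The merging rule by itself favours this difference. Peaks of other ARFs can join separate peaks of a list into a wider shared site. A private site with several peaks needs each of them to miss the peaks of all other ARFs. The shares were therefore not read as a trait of private sites.

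At the 111 sites with both peaks, the summits mostly stood at the same spacing. In 85 of them, or 76.6% (67.9 to 83.5), the ARF27 and ARF35 summits were exactly 2 bp apart. The ARF27 summit was at the higher coordinate in 45 and at the lower one in 40. The same 2 bp spacing was found in 63.8% of all 8126 sites with both peaks, and in 63.6% (62.6 to 64.7) of the 8015 of these that another ARF shared. The private share was higher by 13.0 percentage points (4.21 to 19.9). It was 80.2% over the 101 private sites outside the dense tracts described below, and 4 of 10 inside them. Summits at the same base occurred at 1 private site, and 13 private sites had summits more than 20 bp apart, up to 80 bp. Among shared sites, 1693 of 8015 had summits more than 20 bp apart. Each distance is between the best peaks of the lists, and shared sites more often held several peaks. The rule required overlap of 1 bp only, so it did not set this spacing. Whether the peak caller did was not tested.

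**Figure D2:**
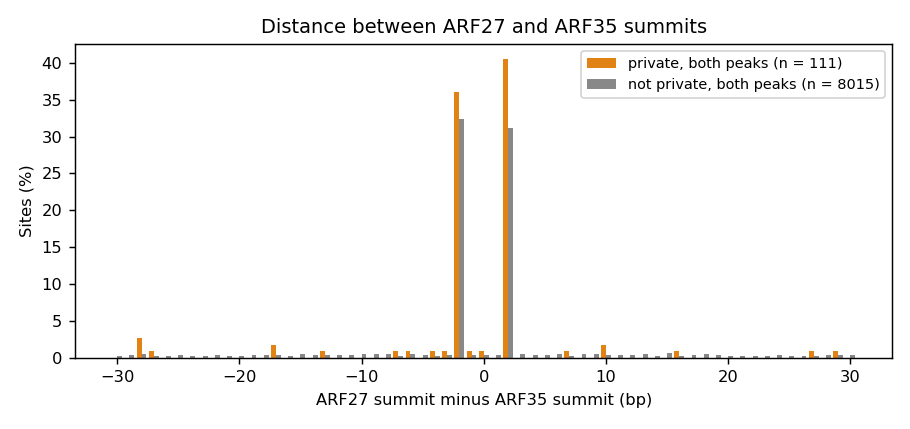
Distance between the ARF27 and ARF35 summits at sites with peaks of both, in bp, as a percentage of sites. The orange bars are the 111 private sites and the gray bars the 8015 shared ones. Both sets rise only at 2 bp on either side of 0, with 85 of the 111 private sites there, and distances beyond 30 bp are not drawn.

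The strength of the ARF27 and ARF35 peaks went together less closely at private sites. Spearman's rho of the ranks was 0.42 over the 111 private sites and 0.69 over the 8015 shared ones. It was 0.32 over the 101 private sites outside the dense tracts described below and 0.95 over the 10 inside them. The points share their libraries, and the private sites span a narrower range of ranks. ARF27 had the higher rank of the pair at 66 of 111 private sites, against 6965 of 8015 shared sites. Inside the tracts it had the higher rank at 3 of 10 private sites. The median difference, ARF27 rank minus ARF35 rank, was 6.22 at private and 19.0 at shared sites. These ranks come from lists of 30665 and 9198 peaks. With lists of equal size the median rank at private sites of the pair was 31.9 for ARF27 and 38.9 for ARF35. The order at private sites therefore turned around there, and shared sites were not compared in that setting.

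The strongest private sites of the pair lay on chromosomes 4 and 7. Ordered by the lower rank of the pair, the first was chr4:172454771-172454975, where the ARF27 signal was 195.3 with a −log10 q of 7.95 and the ARF35 signal was 688.0 with a −log10 q of 41.29. Its ARF35 rank of 99.9 was the highest of any private ARF35 site. The second was chr7:129626072-129626272, with signals of 125.0 and 230.4 and both summits on the same base. Next came chr4:172439842-172440043 and chr4:172439629-172439832, which lay side by side, with ARF27 signals of 123.4 and 96.0 and ARF35 signals of 203.8 and 258.0. The last of the 5 was chr4:172408363-172408565, with signals of 94.0 and 139.4. At all 5 the −log10 q of ARF27 stayed between 5.52 and 8.60. For ARF35 the −log10 q was 9.07 at chr7:129626072-129626272, 8.77 at chr4:172439842-172440043 and 7.86 at chr4:172408363-172408565. At chr4:172439629-172439832 it was 30.53. The signals were thus high in both lists. The q values were close to the limit at all 5 sites for ARF27 and at some of them for ARF35.

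A single site of the pair held more than 2 peaks. At chr1:235764471-235764778, which held 3 peaks, the ARF27 signal was 45.1 and the ARF35 signal 61.4. At chr1:16343900-16344102, named as the next by the same order and holding 2 peaks, the signals were 34.7 and 66.2. Summits of the best peaks were 2 bp apart at both of these sites, the spacing common to the class.

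The strongest ARF27 only sites were scattered over the genome. The first was chr6:27898072-27898272, with a signal of 148.0 and a −log10 q of 35.34. It was followed by chr9:91977922-91978122 with a signal of 131.0, chr5:27795611-27795811 with 128.6, and chr7:173122436-173122636 and chr5:61101822-61102022 with 122.0 each. Their −log10 q values lay between 23.58 and 35.34. None of the 5 had a site of another ARF within 1 kb, the nearest being 1155 bp away. The 10 ARF27 only sites with a second peak had summits 44 to 160 bp apart, for example 44 bp at chr9:31629391-31629635.

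The strongest ARF35 only sites reached the top of their own list. The first was chr6:104401991-104402191, with a signal of 516.0 and a −log10 q of 35.88. The others of the top 5 were chr4:172431702-172431902 with 251.0, chr5:157964603-157964803 with 219.0, chr6:119098247-119098447 with 199.0 and chr6:104405392-104405763 with 198.2. The last of these held 2 ARF35 peaks. Of the 5, only the site on chromosome 5 had no run of private ARF35 sites around it. The other 4, like the 5 strongest sites of the pair, lay in short tracts where private ARF35 sites followed one another.

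There were 7 such tracts, taken as runs of at least 3 private ARF35 sites with gaps of at most 50 kb. They were picked out after the values had been seen, so their density is a description. Together they covered 212 kb and held 55 merged sites, which is 0.0442% of all merged sites. Of these 55, 42 were private, and they comprised 32 ARF35 only sites (9.97% of that class), 10 sites of the pair (9.01%) and 0 of the 2207 ARF27 only sites. The lists met these tracts unequally. ARF35 had 49 peaks in them, where its mean over the same length of genome was 0.948, and ARF27 had 15 against a mean of 3.16. ARF34, the longest list, had 8 against 7.69, and the 12 other lists together had 26.

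The largest tract was chr4:172408363-172454975, with 17 ARF35 peaks, 6 ARF27 peaks and 3 peaks of the 12 other ARFs over 46.6 kb. Its ARF35 signals ran from 31.0 to 688.0 with a median of 162.0. The densest was chr6:104399151-104405763, where 7 ARF35 peaks and 1 ARF27 peak stood within 6.61 kb and no other ARF had a peak. The tract chr7:129626072-129667267 held 11 ARF35 peaks, 2 ARF27 peaks and 4 others over 41.2 kb. The 4 remaining tracts, at chr6:119069779-119100299, chr7:129895871-129933955, chr7:150223054-150237813 and chr9:156899-191343, had 3 private sites each. Of these, only chr7:129895871-129933955 was well covered by other ARFs, with 16 peaks from 8 other lists.

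**Figure D3:**
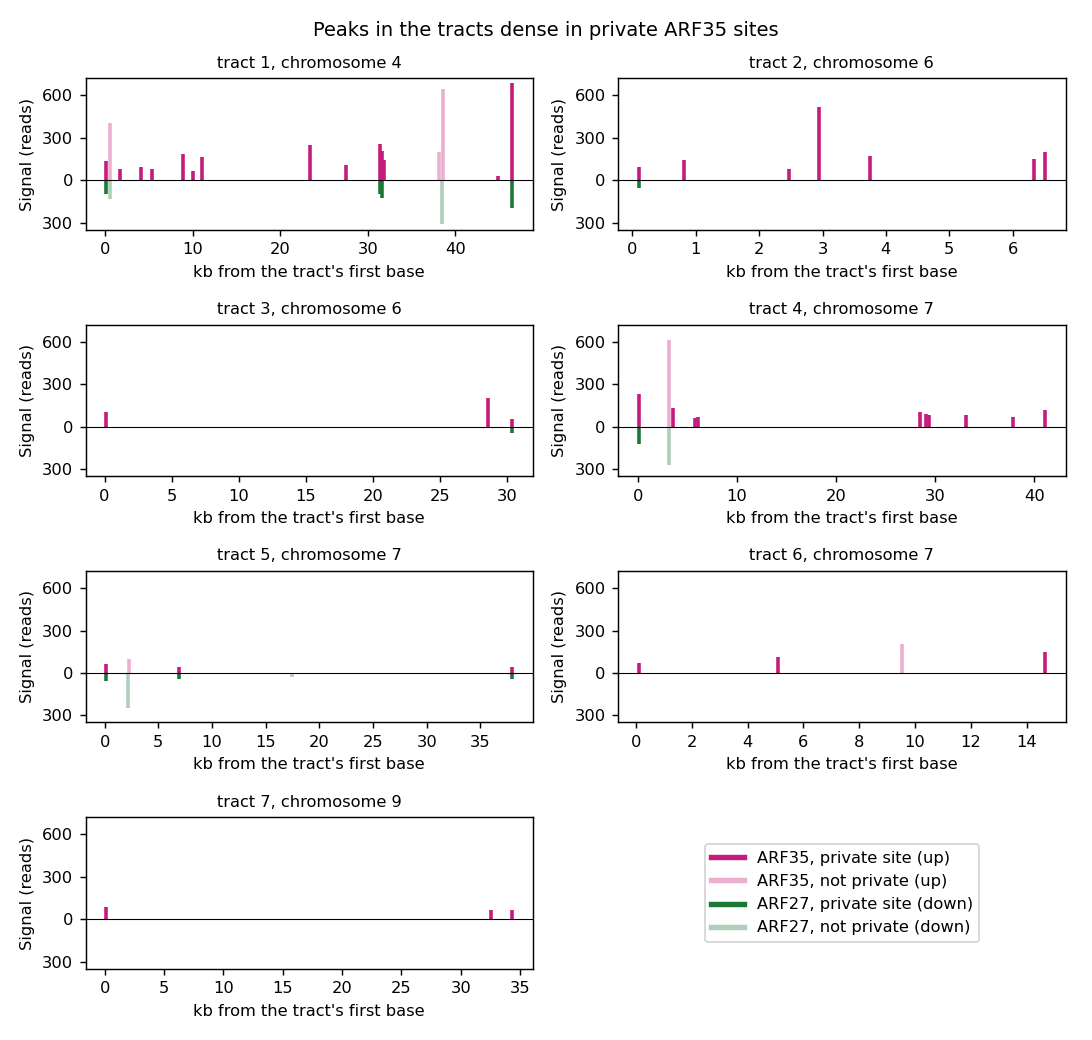
ARF35 peaks (bars upward) and ARF27 peaks (bars downward) in the 7 tracts dense in private ARF35 sites, by distance from the start of the tract in kb, with bar height as signal in reads. Dark bars are private sites and pale bars are sites shared with another ARF. ARF35 peaks are the more numerous in 6 tracts, and ARF27 has no peak in the last pair of tracts.

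Strong ARF35 peaks in the tracts mostly had low q values for their signal. Of 29 private ARF35 peaks with a signal of at least 100, 21 were in the tracts. Private tract peaks with signals from 100 to 200 had a median −log10 q of 10.94 (lowest 5.87, highest 21.86, n = 15), against a median of 24.4 (quartiles 19.85 and 30.995, n = 1343) for shared ARF35 peaks of like signal. With signals from 200 to 700 the medians were 24.61 for 6 private tract peaks and 59.07 for 376 shared peaks.

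The same held for the ratio of −log10 q to signal at signals of at least 100. Its median was 0.0697 for private ARF35 peaks in the tracts, 0.0824 for the 8 private ones elsewhere and 0.203 for 1730 shared peaks. The 5 shared ARF35 peaks inside the tracts had a median of 0.0690, so among strong tract peaks the low ratio was found at shared and private sites. The 3 private ARF27 peaks of this strength in the tracts had a median of 0.0442. The 16 ARF27 only peaks of this strength, all outside the tracts, had 0.211 against 0.241 for shared ARF27 peaks. The q value weighs ARF reads against reads of the GST-HALO control, whose reads were not analysed here. Their part in the tracts was not tested.

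The tract chr7:129895871-129933955 differed from the others in this ratio. Its ARF35 peaks, at all signals, had a median of 0.146, against 0.0697 to 0.0888 in the 6 other tracts and 0.161 over all shared ARF35 peaks. Its strongest ARF35 peak, at a shared site, had a signal of 95.9 and a −log10 q of 23.7. The ARF27 peak at that place had a signal of 247.0 and a −log10 q of 66.42. No ARF35 peak of this tract reached a signal of 100, so none entered the values for strong peaks.

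**Figure D4:**
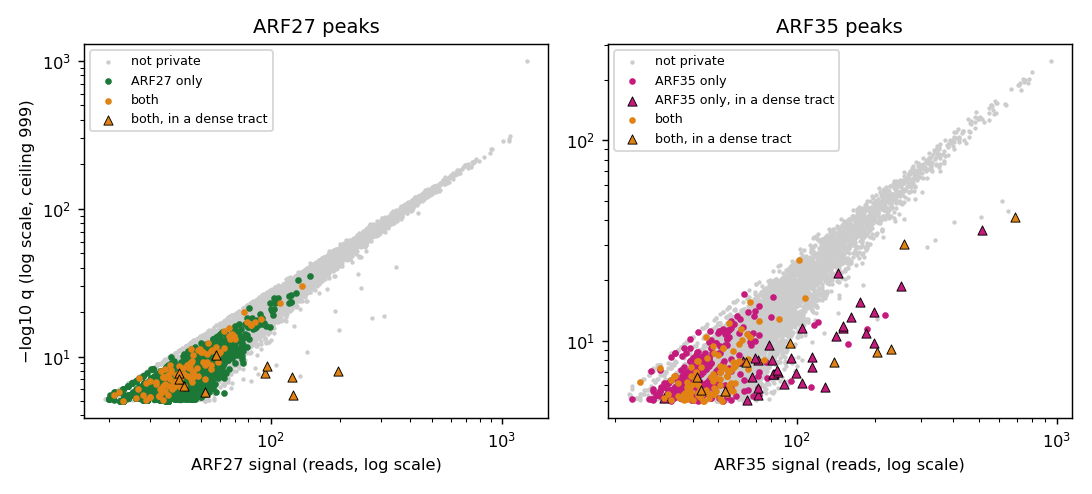
Peak signal in reads against −log10 q, both on log scales, for the ARF27 list (left) and the ARF35 list (right). Gray points are peaks at shared sites, colored points private ones, and triangles private peaks in the dense tracts. Between signals of 100 and 200 the ARF35 triangles have a median −log10 q of 10.94 against 24.4 for shared peaks, and the highest of them, at 21.86, lies within the band of shared peaks.

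Clustering of ARF35 only sites rested on these tracts. Within 10 kb, 36 of the 321 ARF35 only sites (11.2%, 8.21 to 15.1) had another of their class, but outside the tracts 8 of 289 did (2.77%, 1.41 to 5.37). The tracts had been picked for density, which lowers the second share by construction. For the pair it was 4 of 111 (3.60%), and 0 of 101 outside the tracts, which allows up to 3.66% by the Wilson interval. For ARF27 only, 183 of 2207 sites (8.29%, 7.21 to 9.52) had another within 10 kb, none of them in the tracts.

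The groups themselves differed in size. The largest ARF35 only groups chained at 10 kb had 6 sites, at chr4:172409974-172419549 and chr7:129654412-129667267. ARF27 only sites formed 90 groups of at most 3 sites, and the 3 largest were at chr7:10962886-10976506, chr8:127155994-127161394 and chr9:15911912-15919288. The share with another of the class within 10 kb was also taken for ARF4, ARF7, ARF10, ARF14, ARF16, ARF25, ARF29 and ARF34. Among these it ran from 2.29% for the 436 sites of ARF29 only to 27.8% for the 23270 of ARF34 only. It was 7.93% for the 3491 sites of ARF4 only, near that of ARF27 only. Classes close in number to the 2207 ARF27 only sites had lower shares, with 3.33% of the 2163 sites of ARF10 only and 4.32% of the 2455 sites of ARF14 only.

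Most private sites lay within a few kb of a site of another ARF. The median gap from an ARF27 only site to the nearest site of one of the 12 other ARFs was 2322 bp, and 30.3% (28.4 to 32.3) had one within 1 kb. For ARF35 only the median was 3149 bp, with 24.0% (19.6 to 28.9) within 1 kb, and for the pair it was 2292 bp with 31.5% (23.6 to 40.7). Over all sites with an ARF27 or ARF35 peak this share was 30.8%. Against shared sites of the same pattern the differences were 0.89 percentage points (−1.11 to 2.95), −2.61 (−9.00 to 3.90) and −2.89 (−10.9 to 6.30), so all 3 intervals held 0. The neighbour most often carried ARF34, at 64.6% of ARF27 only, 62.0% of ARF35 only and 64.9% of pair sites.

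At the limit of the rule, the smallest gaps to another ARF's site were 1, 1 and 3 bp for ARF27 only, 29, 35 and 63 bp for ARF35 only and 5, 17 and 18 bp for the pair. Just outside it, the smallest overlaps that made a site shared were 1, 1 and 4 bp for sites with ARF27 alone of the pair, 14, 15 and 25 bp with ARF35 alone and 59, 86 and 100 bp with both. A gap of up to 50 bp was found at 59 ARF27 only sites, 2 ARF35 only sites and 6 sites of the pair, so few members stood at the limit.

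Position along the chromosome was compared with that of shared sites and of sites with neither ARF. The outer 20% of each chromosome, with 10% taken at either end, held 23.9% of all merged sites and 22.0% (21.8 to 22.3) of those with neither ARF27 nor ARF35. It held 29.5% (27.7 to 31.5) of ARF27 only sites, which is 7.52 percentage points (5.64 to 9.48) above the sites with neither, and the difference had this direction on 10 of 10 chromosomes. ARF27 only sites differed little from shared ARF27 sites, of which 30.1% were in the outer part, with a difference of −0.59 (−2.54 to 1.42). The sign of this small difference changed with the setting, for example to 2.56 (−1.16 to 6.41) with lists of equal size.

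ARF35 only sites lay less often in the outer part than shared ARF35 sites. The shares were 25.9% (21.4 to 30.9) and 33.4% (32.4 to 34.4), a difference of −7.51 percentage points (−12.1 to −2.36). It had the same direction on 8 of 10 chromosomes, though chromosomes 2 and 10 were near even (−0.10 and −0.15). The largest differences were on chromosomes 4 (−19.9), 7 (−19.0) and 6 (−17.5), which carried all tracts but that on chromosome 9. Chromosomes 8 and 9 went the other way (5.31 and 9.63). The count by chromosome was not repeated without the tracts. Without the dense tracts the difference over all chromosomes was −5.69 (−10.6 to −0.170). Against shared sites with ranks from 8.15 to 39.8, the quartiles of ARF35 only sites, it was −6.17 (−11.0 to −0.806). All ARF35 only sites were kept in that setting, so the ranks were matched only in part. With all lists cut to equal size the difference was −1.46 (−4.45 to 1.63), so it did not hold there. Lower outer shares at single-list than at shared sites were also found for ARF16 (20.9% against 26.3%) and ARF34 (22.6% against 25.9%). ARF4, ARF7, ARF13, ARF14, ARF18 and ARF36 had the same direction, with overlapping intervals for ARF13, ARF14, ARF18 and ARF36. A lower share was thus the more common direction among the other lists. ARF10, ARF25, ARF29 and ARF39 went the other way. For the pair, 27.03% (19.64 to 35.95) lay in the outer part against 33.6% of shared sites with both peaks, a difference of −6.57 (−14.0 to 2.41). ARF27 only and ARF35 only sites differed by 3.69 points (−1.70 to 8.57), within counting error.

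**Figure D5:**
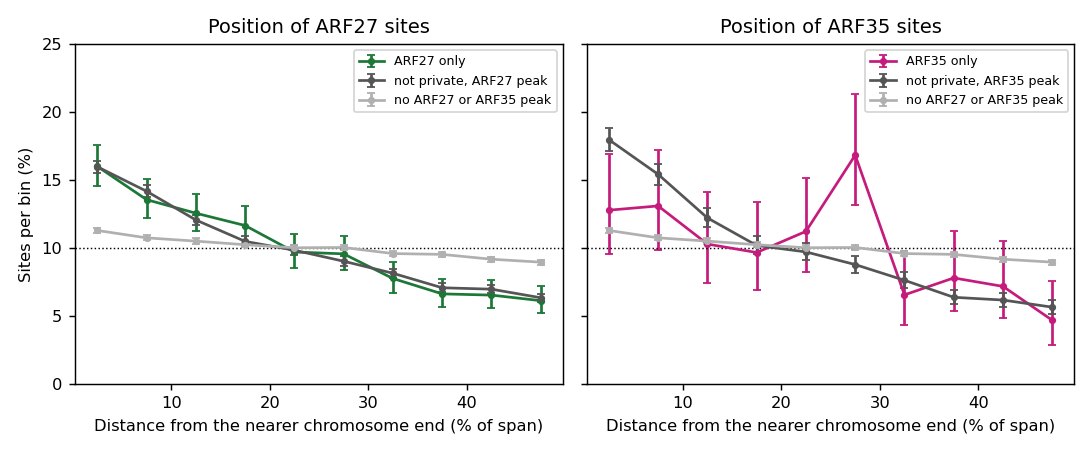
Share of sites by distance from the nearer chromosome end, in bins of 5% of the chromosome span, for ARF27 sites (left) and ARF35 sites (right). Bars are 95% Wilson intervals, and the dotted line at 10% is an even spread. ARF27 only sites follow shared ARF27 sites, while ARF35 only sites peak at 16.8% between 25% and 30% of the span.

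This peak of ARF35 only sites held 54 sites, of which 21 were in the dense tracts. Outside the tracts 33 of 289 sites (11.4%) remained in that bin, against 8.77% of shared ARF35 sites. Over whole chromosomes the classes were spread more evenly. ARF27 only sites ranged from 9.22 per 10 Mb on chromosome 4 to 12.5 on chromosome 9, and ARF35 only sites from 1.20 on chromosome 10 to 1.98 on chromosome 7. The private share of ARF35 sites was lowest on chromosome 5 with 3.62% and highest on chromosome 7, which carried 3 of the tracts, with 6.56%.

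The pair kept a small share of its common sites to itself, though a larger one than most pairs of ARFs. The 111 sites of exactly ARF27 and ARF35 were 1.37% (1.14 to 1.64) of the 8126 sites with both peaks. Over the 91 pairs of lists the median was 0.196%, and the pair stood in place 21. By the number of such sites it stood in place 24, with a median of 13 over the pairs. ARF27 had more such sites with ARF34 (1854, 7.89%), ARF4 (343, 2.33%) and ARF16 (291, 1.44%) than with ARF35. For ARF35 the largest number was with ARF27, followed by ARF34 with 33 (0.417%). ARF16 with ARF34 had 8966 such sites (25.6% of those they shared), ARF10 with ARF25 had 3118 (11.9%), ARF7 with ARF14 had 2001 (11.9%) and ARF4 with ARF29 had 475 (4.26%). These counts move with list length, and with lists of equal size ARF27 and ARF35 had 300 such sites, against 399 for ARF16 with ARF34 and 518 for ARF4 with ARF29.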

How the data were processed

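The authors trimmed reads, mapped them to B73 RefGen version 3 with Bowtie2 2.2.8, removed low mapping qualities and called peaks for each ARF with GEM against the GST-HALO library. Per the labels, ARF27 was reduced to 20 M reads and ARF34 to 15 M. The depth of the other libraries is not used here. The deposited signal, a read depth set by GEM, was not scaled between libraries and was compared within a list or by rank. The deposited −log10 p-values and q-values were used as given, and the smallest −log10 q was 5. A mark in the names of the lists, possibly for removed regions, is not explained by the labels.

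Peaks overlapping by at least 1 bp were merged in Python 3.11.15 with pandas 2.3.3, numpy 2.4.6 and scipy 1.17.1, tested on simulated data, and checked with bedtools 2.31.1, which gave a difference of 0 sites. Chromosome spans run from 1 to the largest peak end. Named sites were the 5 of highest rank in each class (for the pair, by the lower rank), the largest groups chained at 10 kb and the 2 pair sites with most peaks, with ties going to the higher −log10 q. Members, lists and measures were chosen with earlier results of these data known. Alternatives covered overlap, joining of gaps, q limit, list size, window sizes and leaving out each list in turn. A further pair was added after seeing the data. These were omitting the dense tracts, and a comparison with shared sites ranked within the quartiles of the private class. The private class itself was kept whole in the latter. Site sequences, nearby genes and protein comparisons were not analysed here.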

Additional observations from a re-analysis of the deposited data

How the results depend on the processing

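No paired analysis was possible because each ARF had 1 library. The order of ARF27 only above ARF35 only turned around with lists of equal size (680 against 1082) and with ARF27 cut to the ARF35 list size (66 against 421). The ARF27 only outer difference of −0.59 points changed sign in 4 settings. It went to 0.78 (−log10 q limit of 10), 2.56 (equal sizes), 1.07 (outer 40%) and 1.85 (shared sites within the rank quartiles of ARF27 only). Every one of these intervals held 0. The cause of each shift below was not tested unless the setting itself makes fewer peaks. Where all lists were limited to a −log10 q of 10 or more, the classes (ARF27 only, ARF35 only, both) held 1169, 109 and 47 sites, the private shares were 8.92% for ARF27 and 4.09% for ARF35, the median rank was 12.8 for ARF35 only and 25.7 for ARF27 at pair sites, the outer shares were 33.2% and 20.2%, and the ARF35 only difference was −14.4 points. With that limit on ARF27 and ARF35 alone, the classes held 240, 61 and 2 sites, the outer shares were 31.7%, 16.4% and 0.0%, and the difference was −18.0. With lists of equal size both had 300 sites, the private shares were 13.7% and 19.1%, the median ranks were 22.9 (ARF27 only), 22.8 (ARF35 only) and 38.9 (ARF35 at pair sites), the outer shares were 36.0% and 32.6%, and the ARF35 only difference was −1.46. With ARF27 cut to the ARF35 list size, both had 13. The ARF27 private share was 8.73% with an overlap of at least 100 bp and 7.51% with gaps of up to 200 bp joined. The outer 40% of chromosomes held 53.7%, 45.8% and 47.7% of the classes, 68.4%, 64.8% and 72.97% had another ARF's site within 5 kb, and chaining at 50 kb grouped 17.9% of ARF27 only sites. Without the tracts, 2.77% of ARF35 only and 0.0% of pair sites had a neighbour of their class. Leaving out each of the 12 other lists in turn gave 2207 to 4072 ARF27 only sites, 321 to 355 ARF35 only, 111 to 192 with both, private shares of 8.12% to 14.9% and 4.91% to 6.20%, and differences of −0.71 to −0.07 and −7.84 to −7.17 points. The highest counts and private shares came without ARF34. Site sequences, nearby genes and proteins were not analysed here. Unknown depth of most libraries limits any reading of a missing peak, since a site just under the limit in another list counts as private.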
